A study of Mus musculus with 9 samples.

Results

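This account follows 10 genes of LIM and PDZ-LIM proteins of the muscle Z-disc (Fhl1, Fhl2, Fhl3, Csrp1, Csrp2, Csrp3, Pdlim3, Pdlim5, Pdlim7 and Ldb3) while mouse primary myoblasts became myotubes in culture. The members were picked by gene symbol: a probe set belongs where its platform symbol is exactly one of these names. Each gene had 1 such probe set, so 10 of the 19938 genes on the array were described. All 10 passed the filter on low values, as did 16582 genes in all. Wild type Balb/c skeletal muscle was the source of the cells. Of 9 arrays, 3 measured myoblasts that were still cycling (0 days), 3 myotubes given 2 days of differentiating medium, and 3 myotubes given 5 days of it. The growth protocol on every sample names the same Ham's F10 medium with serum and bFGF, so the medium of the myotubes is known from the titles alone. No label tells whether the arrays of a group stand for separate cultures or animals, so p-values cover only array-to-array spread, possibly all of it technical.

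A LIM domain is a zinc-binding fold that holds proteins together, and a PDZ domain at the other end of a protein can grip alpha-actinin, the cross-linker of the Z-disc. The Z-disc anchors the thin filaments of neighbouring sarcomeres, and its LIM proteins form a scaffold there. FHL proteins are built of LIM domains alone, CSRP proteins of a pair of LIM domains, and the PDZ-LIM proteins of a PDZ domain with LIM domains behind it. Several members also enter the nucleus and act as cofactors of transcription factors, among them serum response factor.

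Levels are log2 RMA values, which the authors deposited after normalizing sets of arrays apart. Arrays of one time point shared a distribution and arrays of different times did not: array medians were near 4.34 before differentiation, 4.26 on day 2 and 3.99 on day 5. Every change is therefore given on 2 scales, as deposited and after quantile normalization, which gives all 9 arrays the same distribution. A gene was called where limma's adjusted p was below 0.05 and the change was at least 2-fold in the same direction on both scales. The size decides these calls, because 93.3% of all genes passed the p threshold alone at day 2. Replicate values were often identical (within 1e-06), on all 3 arrays in 15 of 30 combinations of member and time point, which makes standard errors (SE) and p-values too small. The highest SD of a member over 3 arrays was 0.184.

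The 10 genes split within 2 days. Pdlim3, Ldb3 and Csrp3 rose, Csrp1 and Csrp2 fell, and the other 5 did not reach 2-fold on both scales. The 3 rises compare with 6.04% of all 16582 genes called higher at day 2, and the 2 falls with 8.41% called lower. By day 5 against cycling myoblasts Fhl1, Ldb3 and Pdlim3 rose and Csrp1 and Fhl2 fell. The background was 4.44% called higher and 12.3% called lower. The split depends on the scale: as deposited alone 3 rose and 4 fell, and quantile-normalized alone 5 rose and 2 fell. From day 2 to day 5 only Fhl1 of the 10 was called, upwards, against a background of 0.766% upwards and 3.67% downwards. The comparisons of day 2 and of day 5 share the cycling arrays. The members' median change was 0.38 as deposited and 0.56 quantile-normalized at day 2, beside -0.01 and 0.09 over all genes. At day 5 it was 0.00 and 0.89 beside -0.37 and 0.17. All cells of a dish were pooled in a sample, so fewer cells of a type and less RNA per cell cannot be told apart.

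**Figure D1:**
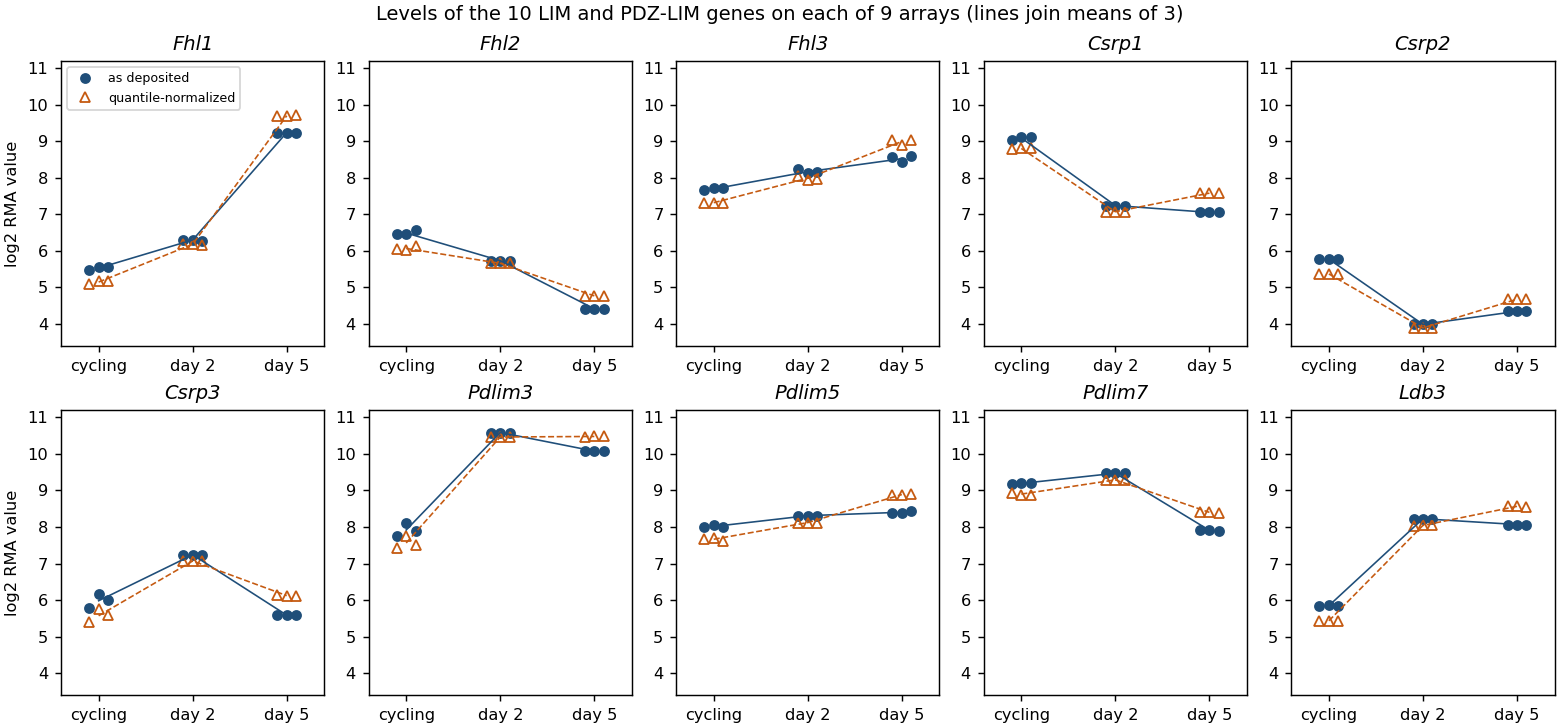
Log2 RMA values of the 10 genes (y axis) on each array of the 3 time points (x axis), as deposited (filled circles) and quantile-normalized over 9 arrays (open triangles), with lines through the means of 3. Fhl1 climbs to 9.24 at day 5, Pdlim3 and Ldb3 are already high at day 2, and Csrp3 peaks at day 2. Csrp1, Csrp2, Fhl2 and Pdlim7 end below where they began on both scales.

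**Figure D2:**
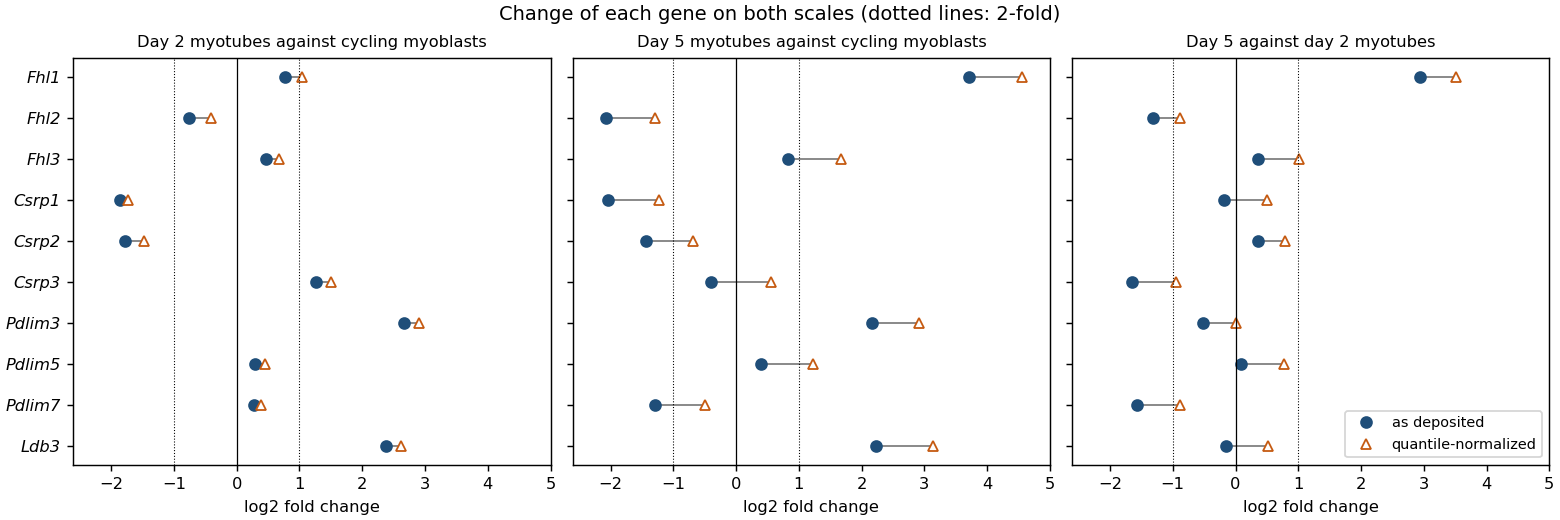
Log2 fold change of each gene (x axis) in the 3 comparisons, as deposited (circles) and quantile-normalized (triangles), with dotted lines at a 2-fold change. The scales lie close at day 2 and apart at day 5, and for Csrp3 at day 5 against cycling myoblasts they fall on opposite sides of 0, at -0.40 and 0.55.

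Fhl1 is the FHL form best known from adult skeletal muscle, and its mutations cause reducing body myopathy and related muscle diseases. It read 5.47, 5.56 and 5.56 on the cycling arrays, 6.31, 6.31 and 6.29 at day 2, and 9.24 on all 3 arrays at day 5. Every day 5 array was above every day 2 array, and every day 2 array above every cycling array. The change at day 5 against cycling myoblasts was 3.71 as deposited (SE 0.026, limma adjusted p = 6.22e-12) and 4.56 quantile-normalized, that is 13.1-fold and 23.5-fold. Most of it came after day 2, with 2.94 and 3.52 between day 2 and day 5 (adjusted p = 2.84e-11 as deposited). At day 2 the change was 0.77 and 1.04, which reached 2-fold after quantile normalization alone.

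Fhl2, a cofactor that binds many nuclear and signalling proteins and is prominent in heart, took the opposite course. It read 6.46, 6.46 and 6.56 in cycling myoblasts, 5.73 on every day 2 array and 4.41 on every day 5 array, and no 2 groups overlapped. The change at day 5 was -2.08 as deposited (SE 0.028, adjusted p = 2.87e-10) and -1.30 quantile-normalized, a 4.22-fold or 2.46-fold lower level. It was spread over both intervals, with -0.76 and -0.41 by day 2 and -1.32 and -0.89 after it. At day 5 the value of Fhl2 was shared by 187 to 203 probe sets of the same array, so its level there is known only as coarsely as those common values allow.

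Fhl3, a further FHL protein of muscle, read 7.68, 7.71 and 7.71 in cycling myoblasts, 8.23, 8.13 and 8.15 at day 2, and 8.56, 8.43 and 8.59 at day 5. The groups were ordered in time and did not overlap. The change at day 5 was 0.83 as deposited and 1.68 quantile-normalized, so the direction held and the 2-fold mark was reached on the second scale alone.

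RefSeq promoter windows of GRCm38.p6 were read for the members, taking the 250 bases before each listed start. There were 15 windows for 9 of the 10 genes, and none for Csrp2. A CArG box, the binding motif of serum response factor (CC and GG around a core of A and T), matched in windows of Fhl1, Fhl2 and Ldb3, that is in 3 of 9 genes and 5 of 15 windows, against 1.47% of all 32851 windows. The 2 windows of Ldb3 overlap and share their match. The genes with a match went both ways in time, with Fhl1 and Ldb3 up and Fhl2 down. Fhl1 has 2 windows, and the one at its other listed start held no CArG match. The 150 bases nearest the start are shown for windows of Fhl1 and Fhl2, because these paralogs have a matching window and diverge; each runs 5′ to 3′ on the strand of the gene, with CArG matches in capitals, and in the first Fhl2 window a MEF2 match too, at 31 to 22 bases before the start. A MEF2 match was found in 2.92% of all windows and, among the members, in that 1 window. The shown part of the first Fhl1 window lies at chrX:56779533-56779682 on the plus strand and the match spans 102 to 93 bases before the start. The shown part of the first Fhl2 window lies at chr1:43196762-43196911 on the minus strand, with the CArG match 96 to 87 bases before the start. That of the second Fhl2 window lies at chr1:43163962-43164111 on the minus strand, with the match 31 to 22 bases before another start.
Fhl1, first window: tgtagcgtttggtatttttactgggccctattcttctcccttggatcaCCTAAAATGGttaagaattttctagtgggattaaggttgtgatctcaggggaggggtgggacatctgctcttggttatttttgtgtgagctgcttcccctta
Fhl2, first window: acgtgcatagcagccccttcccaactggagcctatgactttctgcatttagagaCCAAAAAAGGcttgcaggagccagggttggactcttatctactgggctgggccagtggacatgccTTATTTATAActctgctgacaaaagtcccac
Fhl2, second window: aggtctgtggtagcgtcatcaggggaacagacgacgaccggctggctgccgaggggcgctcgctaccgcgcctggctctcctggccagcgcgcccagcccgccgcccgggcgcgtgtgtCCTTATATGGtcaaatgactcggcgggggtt

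Among the CSRP genes the muscle form and its relatives moved apart at day 2. Csrp3 encodes the muscle LIM protein, which supports myogenic differentiation and is tied to the Z-disc in heart and skeletal muscle. It read 5.79, 6.16 and 5.99 on the cycling arrays, 7.24 on each day 2 array and 5.58 on each day 5 array. Day 2 stood above all other arrays. The rise at day 2 was 1.26 as deposited (SE 0.085, adjusted p = 5.28e-06), or 2.39-fold, and 2.83-fold quantile-normalized. From day 2 to day 5 the change was -1.65 and -0.95, downward on both scales and beyond 2-fold as deposited alone. Whether the level at day 5 lay below or above that of cycling myoblasts depends on the scale, with -0.40 as deposited and 0.55 quantile-normalized. Quantile-normalized means were 5.57, 7.07 and 6.12, with day 2 again the highest. The cycling arrays differed more for Csrp3 than for any other member, by 0.37 between the lowest and the highest.

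Csrp1, a partner of alpha-actinin and actin in smooth muscle and non-muscle cells, read 9.04, 9.12 and 9.12 in cycling myoblasts, 7.24 on every day 2 array and 7.06 on every day 5 array. The fall at day 2 was -1.85 as deposited (SE 0.020, adjusted p = 9.43e-11) and -1.73 quantile-normalized. At day 5 it was -2.04 and -1.22 against cycling myoblasts. Between day 2 and day 5 the sign differed, -0.19 as deposited and 0.51 quantile-normalized, so the later course is not known. Quantile-normalized means were 8.81, 7.07 and 7.58 in the order of time, lowest at day 2, where the deposited values are lowest at day 5.

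Csrp2, known from vascular smooth muscle, read 5.78 on all cycling arrays, 3.99 on all day 2 arrays and 4.35 on all day 5 arrays. It was lowest at day 2 on both scales. The fall at day 2 was -1.79 and -1.48, and the difference at day 5, -1.43 and -0.69, fell short of 2-fold after quantile normalization. Its day 2 value lay under the array median and was shared by 380 to 398 probe sets of the same array, so the exact size of the fall is not known. Its 3 arrays were identical at each time, so its fitted SE rests on no measured spread and is not given.

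Of the PDZ-LIM genes, Ldb3 and Pdlim3 moved most. Ldb3, the ZASP protein whose mutations cause myofibrillar myopathy and cardiomyopathy, ties alpha-actinin to signalling kinases. It read 5.84, 5.86 and 5.84 in cycling myoblasts, 8.23 on each day 2 array and 8.07 on each day 5 array. The rise at day 2 was 2.38 as deposited (SE 0.0043, adjusted p = 1.28e-15) and 2.61 quantile-normalized, or 5.21-fold and 6.11-fold. At day 5 it was 2.22 and 3.13. Between day 2 and day 5 the scales gave -0.16 and 0.52, both well under the first step. Quantile-normalized means were 5.43, 8.04 and 8.57.

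Pdlim3, the actinin-associated LIM protein ALP, read 7.77, 8.11 and 7.88 in cycling myoblasts, 10.59 on each day 2 array and 10.08 on each day 5 array. All 6 myotube arrays lay above all 3 cycling arrays. The rise at day 2 was 2.67 as deposited (SE 0.081, adjusted p = 4.55e-08) and 2.90 quantile-normalized, or 6.36-fold and 7.47-fold. At day 5 it was 2.16 and 2.92. The step from day 2 to day 5 was -0.51 as deposited and 0.01 quantile-normalized, the latter with an adjusted p of 0.857.

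The 150 bases nearest the start are shown for these 2 genes because both were higher by day 2 and stayed so, yet no searched motif was common to them. Ldb3 had a CArG match 35 to 26 bases before the start, in a window whose shown 150 bases lie at chr14:34588682-34588831 on the minus strand. Pdlim3 had the E-box CAGCTG, a sequence that myogenic bHLH factors can bind, at 139 to 134 bases before the start, and MCAT matches (CATTCC, the motif of TEAD factors, both strands searched) at 11 to 6 and 201 to 196 bases. The shown 150 bases of its window, which hold the first 2 of these, lie at chr8:45885337-45885486 on the plus strand. CAGCTG was found in 4271 and CATTCC in 12.6% of all 32851 windows, and among the members each was in the Pdlim3 window alone. The broader E-box CANNTG, which includes CAGCTG, was in windows of 6 of 9 members and in 66.2% of all windows. Both windows of Csrp3 held 4 such E-boxes and no other searched motif. A match is a description of letters, not a measured binding site.
Ldb3: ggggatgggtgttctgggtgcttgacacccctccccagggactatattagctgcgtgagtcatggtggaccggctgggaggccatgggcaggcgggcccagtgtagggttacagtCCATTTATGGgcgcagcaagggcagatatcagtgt
Pdlim3: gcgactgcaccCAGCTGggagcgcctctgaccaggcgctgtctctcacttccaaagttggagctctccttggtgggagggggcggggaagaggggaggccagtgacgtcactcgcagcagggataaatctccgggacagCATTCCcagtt

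Pdlim5 and Pdlim7, the ENH and Enigma proteins, are found in many tissues besides muscle and bind protein kinases. Pdlim7 read 9.19 on all 3 cycling arrays, 9.47 on each day 2 array and 7.92, 7.92 and 7.89 at day 5. It was slightly higher at day 2, by 0.28 and 0.39, and lower at day 5, by -1.28 and -0.50. The step from day 2 to day 5 was -1.56 as deposited (SE 0.0071, adjusted p = 4.31e-13) and -0.89 quantile-normalized, beyond 2-fold on the first scale alone. Pdlim5 read 7.99, 8.06 and 7.99 in cycling myoblasts, 8.31 on all day 2 arrays and 8.39, 8.39 and 8.43 at day 5. Its changes were small at day 2, at 0.30 and 0.46. At day 5 they were 0.39 as deposited and 1.22 quantile-normalized.

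Ratios between paralogs on the same array do not depend on a shift of the whole array, so they were followed as a further measure over 7 pairs in 3 comparisons. Only their change is read, since levels of different probe sets cannot be set against each other. Ratios by array are given for their spread, and their sign does not tell which gene was higher. The ratio of Fhl1 to Fhl2 changed by 1.53 at day 2 and by 5.79 at day 5 against cycling myoblasts, the latter a 55.3-fold shift (5.85 quantile-normalized), with a size known only coarsely because of the common low value of Fhl2 at day 5. On the arrays the log2 ratio was -0.99, -0.89 and -0.997 in cycling myoblasts, 0.58, 0.58 and 0.55 at day 2, and 4.83 on each day 5 array. The ratio of Fhl1 to Fhl3 changed by 0.30 at day 2 and 2.89 at day 5.

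The ratio of Csrp3 to Csrp2 changed by 3.04 at day 2 and that of Csrp3 to Csrp1 by 3.11. The first value is only as exact as the common low values of Csrp2 at day 2 and day 5 allow. Both then came down, by -2.01 and -1.47 between day 2 and day 5, and remained above cycling myoblasts at day 5, by 1.03 and 1.64. After quantile normalization these day 5 values were 1.24 and 1.78. Csrp3 thus gained on both relatives in either scale, although its own day 5 direction was not settled.

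Against Pdlim7, Ldb3 gained 2.10 at day 2 and 3.51 at day 5, and Pdlim3 gained 2.39 and 3.44. The ratio of Pdlim5 to Pdlim7 changed by 0.02 at day 2 (two-sided exact permutation p = 0.4), a size within the spread of its 3 cycling arrays, and by 1.67 at day 5. Every other one of the 21 ratio changes had an exact permutation p of 0.1, the smallest that 3 against 3 arrays allow, and 0.105 after Benjamini-Hochberg adjustment over the 21. This test thus cannot reach the 0.05 threshold with 3 arrays a group.

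**Figure D3:**
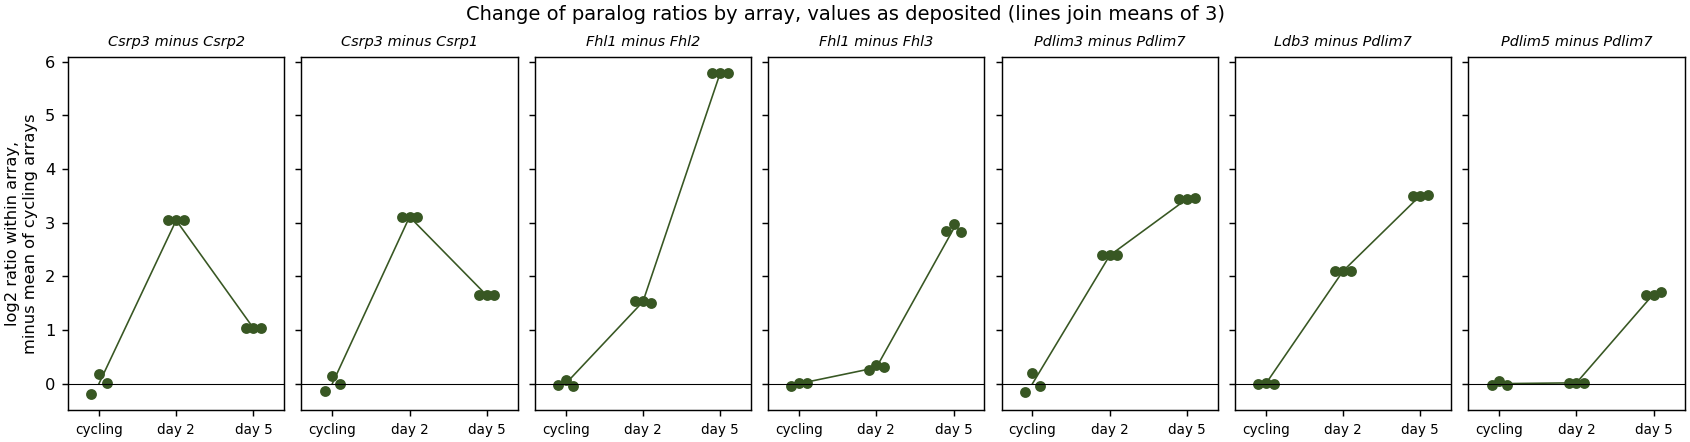
Log2 ratio of 7 pairs of members within each array, minus the mean of the 3 cycling arrays (y axis), by time point (x axis), with values as deposited and lines through the means of 3. The ratio of Fhl1 to Fhl2 ends 5.79 above cycling myoblasts, those of Csrp3 to its relatives peak at day 2, and that of Pdlim5 to Pdlim7 moves after day 2 alone.

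The other genes around the Z-disc were taken from lists and called on the same rule. Beside all list counts stand the shares of all genes called, 6.04% higher and 8.41% lower at day 2. At day 5 they were 4.44% higher and 12.3% lower. No list count was tested against these shares. Of 28 other Z-disc and costamere genes, 20 rose and 0 fell at day 2, with a median change of 1.82 as deposited and 2.02 quantile-normalized. At day 5, 15 rose and 0 fell, with a median of 1.07 and 1.65. The ankyrin repeat gene Ankrd23 (log2 change 5.22 and 5.86 at day 5) and Myot, myotilin of the Z-disc (3.67 and 4.53), were the largest. Falls were called among the 10 members and 0 in this list, a difference that was not tested.

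The 31 tested genes of other LIM domain proteins went both ways, as the members did. At day 2, 7 rose and 7 fell, and at day 5, 3 rose and 9 fell. Lmcd1, a LIM protein of heart and skeletal muscle, rose by 3.59 and 4.26 at day 5, and Tes, testin of focal adhesions, fell by 4.29 and 3.70 on the log2 scale. The list's median at day 5 was -0.77 as deposited and -0.05 quantile-normalized. Of the remaining PDZ-LIM genes, Pdlim1 was called higher from day 2 to day 5 (1.15 and 1.80). Against cycling myoblasts it was not called, at -1.05 and -0.85 at day 2 and 0.10 and 0.95 at day 5. Pdlim2 and Pdlim4 were called in no comparison.

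Csrp1 and Csrp2 are known from smooth muscle, and a list of 14 genes of smooth muscle and of the actin-responsive cofactors of serum response factor was set beside them. At day 2, 1 rose and 4 fell, and at day 5, 1 rose and 8 fell, with a median of -1.98 and -1.43. The list did not move as one. The 5 genes not called at day 5 were Acta2, Cnn1, Lmod1, Myh11 and Smtn. Of these, Cnn1 (0.88 and 1.06) and Lmod1 (0.20 and 0.71) lay above cycling myoblasts on both scales. Flna, filamin A, had mean levels of 10.72 ± 0.059 (SD, n = 3) before differentiation, 7.66 ± 0.012 on day 2 and 4.72 ± 0 on day 5, and fell, with changes of -6.00 and -5.29. Myl9, a regulatory myosin light chain of smooth muscle, changed by -5.36 and -4.72. The day 5 value of Myl9 was that of Csrp2, shared by 261 to 268 probe sets of the same array, so its size is known only coarsely. Flna had identical values on the 3 day 5 arrays. Whether other probe sets shared that value was not counted, so how exactly its size is known is open. Of 12 genes of serum response factor and its partners, 3 rose and 0 fell at day 2, and 2 rose and 0 fell at day 5. The rises included Mef2c (3.32 and 4.04 at day 5) and Tead4 (1.11 and 2.05). With 8.41% of all genes called lower at day 2 and 12.3% at day 5, 0 falls among 12 genes tells little. Srf itself did not reach 2-fold on both scales, at -0.21 and 0.01 at day 2 and -1.13 and -0.17 at day 5.

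**Figure D4:**
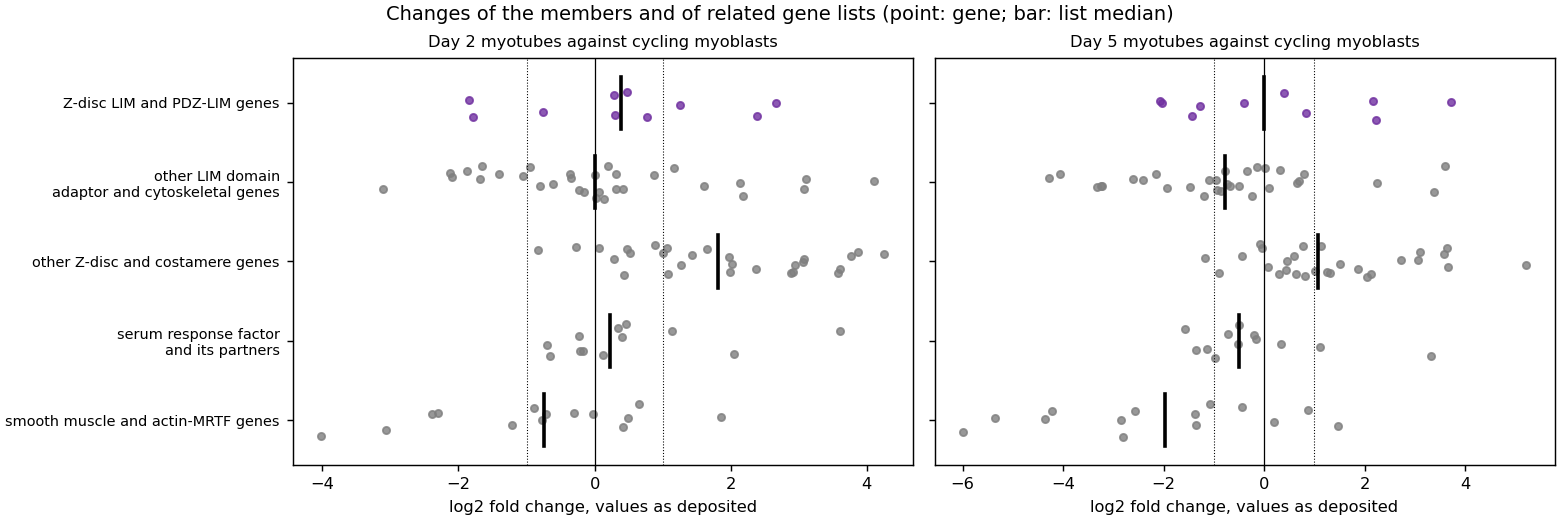
Log2 fold change as deposited (x axis) of every tested gene of the 10 members (purple) and of 4 related lists (grey), at day 2 and day 5 against cycling myoblasts, with a bar at the median of each list and dotted lines at 2-fold. The members spread from falls to rises, and the other Z-disc genes lie mostly to the right. The list of smooth muscle and actin-responsive genes lies mostly to the left, with Cnn1, Lmod1 and Tpm2 to the right of 0 in both panels.

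For each member the gene with the nearest pair of changes was sought, measured as the distance in log2 units over the day 2 and day 5 changes as deposited. This compares 3 time points and says nothing of shared function. The nearest to Fhl1 was Ostn, the secreted peptide musclin, with 0.72 at day 2 and 3.68 at day 5, and it was the single gene within 0.25 of Fhl1. For Ldb3, whose nearest was Usp13, there were 11 genes within that radius, and for Pdlim3, with Ppp1r27, there were 13. Csrp3, with Ccdc80 as nearest, had 26 and Csrp2, with Ptges, 31. Csrp1 had 82, led by Cbr3, and Pdlim7 had 115, led by Lmbrd2. The commonest courses were those of Fhl2 (240 genes, Ppib nearest), Fhl3 (323, Zp2) and Pdlim5 (1160, Ubl4b). After quantile normalization the day 5 changes of several neighbours lay apart from those of the members. Zp2 had 0.89 against 1.68 for Fhl3, Ccdc80 -0.23 against 0.55 for Csrp3, Ubl4b 0.54 against 1.22 for Pdlim5, and Ostn 4.22 against 4.56 for Fhl1.

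The labelled cell types were checked against markers. All 9 myotube markers were called higher at day 2 and 8 of 9 at day 5, and of 6 tested markers of cycling myoblasts 5 fell by day 2 and 6 by day 5. The changes are relative, since all 9 myotube markers already lay above the array median in cycling myoblasts. There Acta1 had a mean of 10.92 and Myog of 9.15, beside a median near 4.34. Of the 6 cycling markers, Mki67 and Top2a lay under the array median in myotubes and the others stayed above it. Among other cell types, all 6 endothelial markers lay under the array median at every time. Of the tested fibroblast markers 2 of 6 fell at day 2 and at day 5, Col3a1 and Fbln1, in the comparisons where Csrp1 fell. The other 4, Pdgfra, Thy1, Col1a1 and Col1a2, were called in no comparison. Their changes at day 5 against cycling myoblasts were 0.07, -0.35, -0.39 and -0.87 as deposited. Quantile-normalized they were 0.56, 0.36, 0.44 and -0.03. As deposited, the mean log2 level over all 9 fibroblast markers was 4.94 on every cycling array and 4.20 on every day 2 array. At day 5 that mean was 3.96 to 4.00. Dcn, Lum and Dpt lay under the array median throughout. The part of such cells in the falls of Csrp1, Csrp2 and Fhl2 was not tested. Of the 5 tested macrophage and leukocyte markers 1 was called higher at day 2, Itgam, and 0 of 4 tested adipocyte markers were called in any comparison.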

How the data were processed

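Total RNA was hybridised to Affymetrix arrays, 1 sample per array. The deposited table holds log2 RMA values of 35556 probe sets on 9 arrays; per the labels and design text the authors ran RMA for each replicate set, and the version and genome build are not given in the sources used here. Sorted values differed by at most 0.0251 on average between arrays of a time point and by at least 0.188 between time points, so the time points had been normalized apart. On each array 54.8% to 68.4% of probe sets shared their value with another. The number of arrays limits the precision, and no background measure was used.

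The platform table named 1 gene for 21789 probe sets, several for 1621 and none for 12146, and those naming 1 gene gave 19938 genes, each by its probe set with the highest mean. Genes above the 30th percentile of their array on at least 3 arrays (16582) were fitted with limma 3.58.1 in R 4.3.3, with a mean per time point and Benjamini-Hochberg adjustment over all genes, on values as deposited and after quantile normalization; a call needed both. The fit was tested on simulated data. The simulated arrays held no identical replicate values, so that test does not bear on the p-values of genes that have them. Members and lists were chosen with earlier results of these data known. Named genes are all members and the nearest gene of each. Of each list the 2 genes with the largest day 5 change on the smaller of the scales are named. Pdlim1, Pdlim2, Pdlim4, Srf, Itgam, Col3a1, Fbln1, Dcn, Lum and Dpt were named after their values were seen. So were Acta2, Cnn1, Lmod1, Myh11, Smtn, Pdgfra, Thy1, Col1a1 and Col1a2. The same holds for Tpm2, Acta1, Myog, Mki67 and Top2a. Older symbols of list genes were matched through RefSeq synonyms. A planned count of LIM domains in the proteins was not made.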

Additional observations from a re-analysis of the deposited data

Results flagged for a closer look

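Pdlim7 lay above cycling myoblasts at day 2 on all 3 arrays and below them at day 5 on all 3 arrays, on both scales. The difference of day 5 from day 2 was -1.56 as deposited and -0.89 quantile-normalized, and reached 2-fold as deposited alone. Each had an adjusted p below the threshold (limma, 4.31e-13 and 6.73e-10), as 94.0% of all genes did as deposited. Pdlim7 was called in no comparison. It was flagged because its signs against cycling myoblasts were opposite, and how many of all genes share that trait was not counted. As deposited, 115 genes outside the members lay within 0.25 of its course. The part of the separate normalization of the time points in the size of this reversal was not tested.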

How the results depend on the processing

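At day 2 the call was made for 5 members, and for 5 or 6 under every alternative run. At day 5 against cycling myoblasts 5 became 7 under each single scale. Between day 5 and day 2, 1 member was called on both scales together, 4 as deposited alone or with arrays centred on their median, 3 centred on the 75th percentile and 2 quantile-normalized alone, so the scale sets this count; as deposited these were Fhl1 up and Fhl2, Csrp3 and Pdlim7 down. The filter, the trend and robust options, leaving out any 1 array and the mean over probe sets (each member has a single one) changed none of the 3 counts. With the replicate block the counts were 5, 5 and 1, unchanged. Deviations of same-numbered arrays from their group means had correlations from -0.038 to 0.11. Of all probe sets, 47.9% to 60.2% were identical on the 3 arrays of a time point, which gives deviations of 0. These correlations therefore cannot tell whether same-numbered arrays share a source. Signs turned in 10 cases, all through the scale. Csrp3 at day 5 against cycling myoblasts gave 0.55 quantile-normalized and 0.57 with the 75th percentile. Between day 5 and day 2, in the order quantile-normalized, median and 75th percentile, Csrp1 gave 0.51, 0.089 and 0.47 and Ldb3 0.52, 0.12 and 0.50, and Pdlim3 gave 0.015 and 0.15 for the first and last. Of the 21 paralog ratio changes 0 turned sign when quantile-normalized or with any 1 array left out. Low values are not shown to lie above background.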

Other observations

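The cycling arrays differed among themselves in the same order for Csrp3, Pdlim3 and the means of the myotube and cycling myoblast markers. Replicate 2 was the highest for Csrp3 (6.16 beside 5.79 and 5.99) and for Pdlim3 (8.11 beside 7.77 and 7.88), and its mean over the 9 myotube markers was 8.35 beside 8.15 and 8.17. For the markers of cycling myoblasts the means were 9.26, 9.31 and 9.30, with replicate 2 again the highest. The order is thus not particular to the myotube markers. These values were looked at after the spread of Csrp3 was seen, and their cause was not tested.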
